A study of Mus musculus with 2 samples.

Results

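The collagen, laminin and integrin genes of the gastrulating mouse embryo were followed in single-cell RNA data of control and *Yap1* cKO embryos at E7. Members were chosen by gene symbol alone, as every gene named as a collagen chain, a laminin alpha, beta or gamma chain, an integrin alpha chain or an integrin beta chain. Of 32285 genes in the count tables, 81 had such a name, and 62 held at least 20 unique molecular identifiers (UMIs, each a counted RNA molecule) over both libraries. The 62 genes were 31 of 44 collagen genes, all 11 laminin genes, 13 of 18 integrin alpha genes and 7 of 8 integrin beta genes. The other 19 held between 1 and 19 UMIs, and none was at 0. Just inside the minimum lay *Col4a4*, *Col6a3* and *Col12a1* with 20, 22 and 23 UMIs, and just outside it *Col20a1*, *Col8a2* and *Col28a1* with 19, 18 and 18. The genes left out included *Col3a1* with 9 UMIs, *Col6a1* with 12 and the leukocyte integrin *Itgb2* with 6.

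Laminins are secreted trimers of an alpha, a beta and a gamma chain that polymerize on the cell surface, and type IV collagen is a trimeric network that is laid on the laminin layer. Together they form the basement membrane under the epiblast and around the extraembryonic endoderm. Integrins are the paired alpha and beta receptors through which cells hold on to this matrix. During gastrulation, cells that leave the epiblast through the primitive streak cross a basement membrane that is broken down there, and the parietal endoderm lays down the thick Reichert's membrane that surrounds the conceptus. YAP1 is a transcriptional co-activator of the Hippo pathway whose activity depends on cell shape and on adhesion to matrix.

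Each genotype was measured in 1 library from pooled E7 embryos, 4 in the control pool and 3 in the *Yap1* cKO pool. *Yap1* cKO embryos carried Sox2-Cre and both floxed *Yap1* alleles (Yap fl/fl). The study's single-cell methods describe the control embryos as Sox2-Cre with 1 floxed allele (Yap fl/+), its methods on mice describe controls as floxed without Cre, and the labels call them WT. Sox2-Cre acts in the epiblast and its descendants, so the extraembryonic ectoderm and the visceral endoderm were not meant to lose the gene. The study describes extraembryonic tissues as probably heterozygous for it in Yap fl/fl embryos. It does not say so of Yap fl/+ controls, so the gene dose in these tissues may differ between the pools. The filters left 787 control cells, at a median depth of 75634 UMIs, and 845 *Yap1* cKO cells, at 79623 UMIs, and the libraries shared 0 of these barcodes. Levels are a population's summed UMIs of a gene, scaled to counts per 1000000 UMIs of the same cells (CPM), with exact 95% Poisson intervals. A ratio is the *Yap1* cKO level over the control level, with an exact 95% interval. With 1 library per genotype there is no test, and the intervals hold counting error alone, since embryos and pools were not replicated.

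Cells were assigned to populations by sums of marker genes, and each name is given as "-like". In the control and *Yap1* cKO libraries there were 270 and 269 epiblast-like cells, 39 and 57 like the primitive streak, and 72 and 87 like the nascent mesoderm. A further 61 and 50 cells were mesoderm-like with high *Foxf1* and *Hand1*, genes of the extraembryonic and lateral mesoderm. There were 70 and 198 visceral endoderm-like cells and 177 and 95 extraembryonic ectoderm-like cells. Smaller groups were 19 and 21 anterior visceral endoderm-like, 29 and 29 blood and endothelial progenitor-like, 17 and 13 node and axial mesendoderm-like, and 18 and 13 definitive endoderm-like cells with high *Sox17*. *Yap1*, the targeted gene, was at 29.3 CPM among control and 1.12 CPM among *Yap1* cKO epiblast-like cells, and at 31.1 and 27.6 CPM in visceral endoderm-like cells. The anterior visceral endoderm-like cells had 38.4 and 13.2 CPM of *Yap1*, from 39 and 21 UMIs. Both libraries are labelled female, yet 51.7% of control cells and 15.9% of *Yap1* cKO cells carried UMIs of Y-linked genes, so the genotypes also differ in the sex of the cells. Within such small pools a split of cells by sex is also a split by embryo, and sex and embryo cannot be told apart.

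The highest levels of the main type IV collagen chains among the 6 larger populations were in the visceral endoderm. *Col4a1* and *Col4a2* encode the chains of the common type IV collagen trimer. *Col4a1* was at 354.0 CPM among control and 346.1 CPM among *Yap1* cKO visceral endoderm-like cells, and at 324 and 355 CPM in the anterior visceral endoderm-like cells. It was at 57.8 and 39.6 CPM in the nascent mesoderm-like cells, at 48.9 and 50.8 CPM in the *Foxf1* and *Hand1* mesoderm-like cells, at 22.8 and 20.7 CPM in the primitive streak-like cells, and at 21.1 and 18.3 CPM in the epiblast-like cells. The lowest level was in the extraembryonic ectoderm-like cells, at 6.24 and 4.87 CPM. The visceral endoderm thus stood 6.12 times above the next of the 6 larger populations in the control library and 6.81 times in the *Yap1* cKO library. The nascent and the *Foxf1* and *Hand1* mesoderm-like cells exchanged places between the libraries with overlapping intervals, and the streak-like and epiblast-like cells did not differ beyond their intervals in either library.

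*Col4a2* had the same order at its ends, with 143 and 153 CPM in visceral endoderm-like cells and 3.68 and 3.61 CPM in extraembryonic ectoderm-like cells. It stood 5.81 and 7.54 times above the next of the 6 populations. Within the visceral endoderm the level varied from cell to cell: *Col4a1* lay at 205 CPM at the 10th and 555 CPM at the 90th percentile of 70 control cells, with a median of 313 CPM, and at 184, 544 and 321 CPM in 198 *Yap1* cKO cells. Across those cells *Col4a1* and *Col4a2* levels had a Pearson correlation of 0.42 and 0.63, between values that share each cell's depth. As a gauge of free RNA from the visceral endoderm, the marker genes of that tissue were measured in the other populations. The marker genes of the visceral endoderm stood in the epiblast, streak, mesoderm and extraembryonic ectoderm-like cells at 0.0296% to 0.188% of their visceral endoderm level. In the same cells *Col4a1* stood at 1.41% to 16.3% of its own. These marker genes also set the visceral endoderm gate, which limits their level in the other populations in advance. The gauge covers no other source of free RNA, and the part of free RNA in the *Col4a1* values was not tested.

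**Figure D1:**
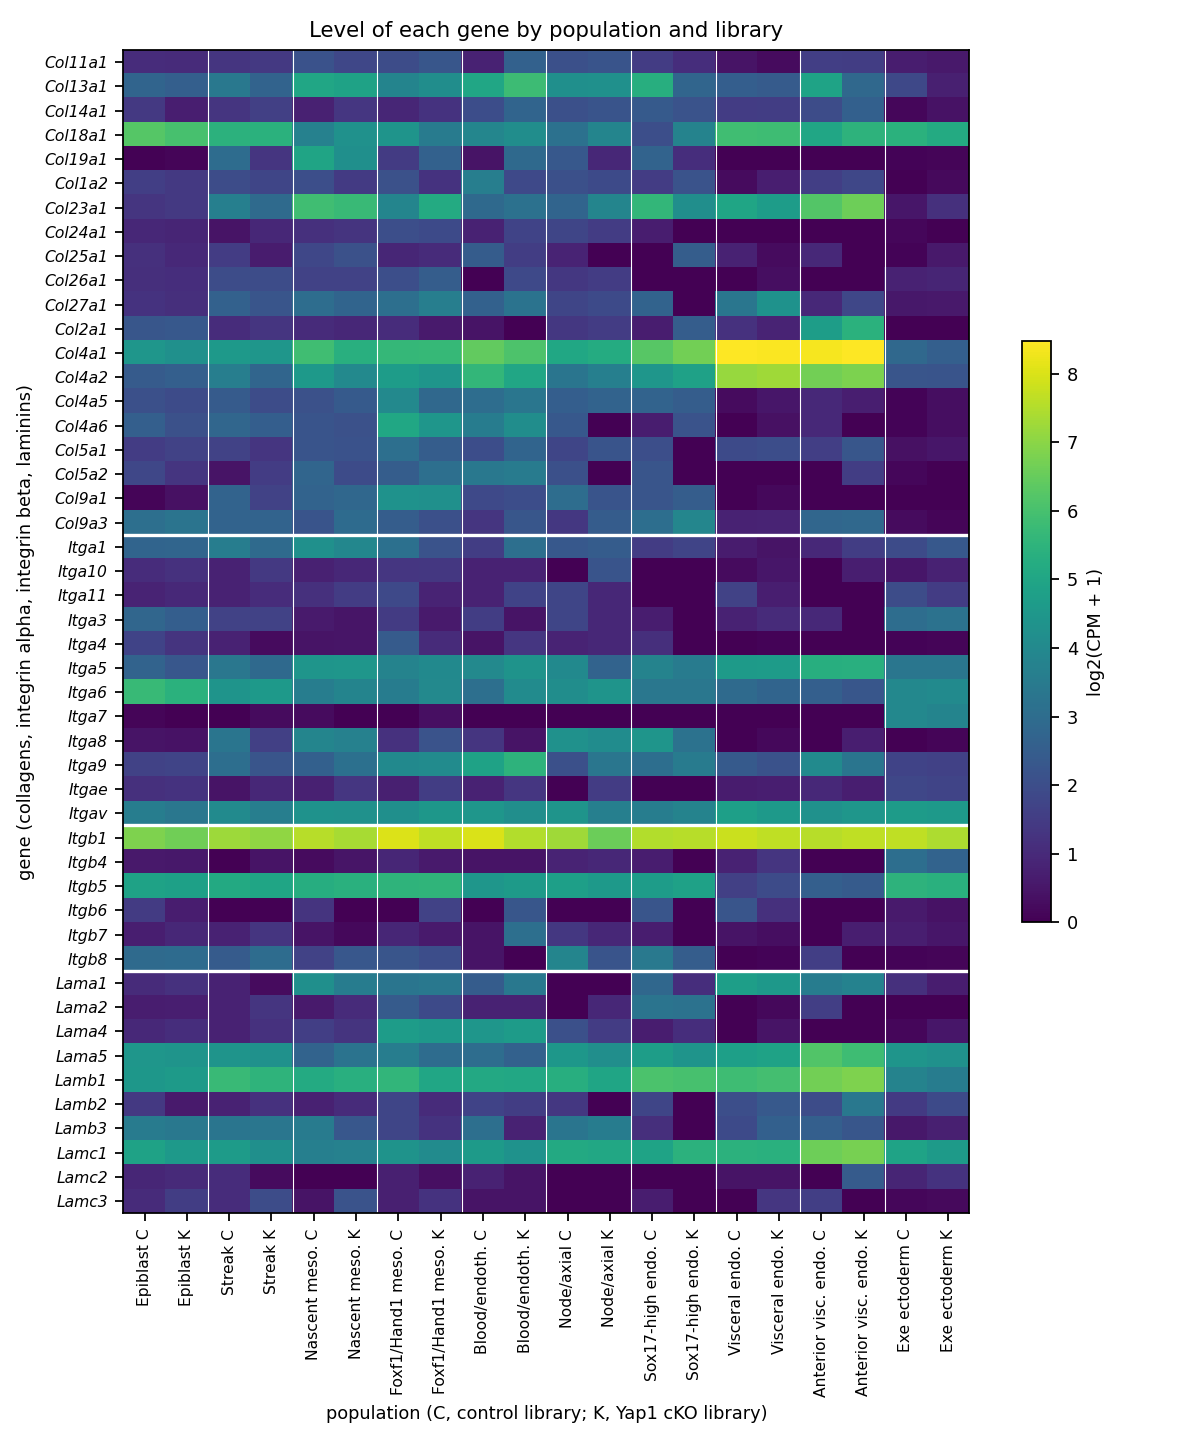
Levels of the 48 collagen, integrin and laminin genes with at least 100 UMIs (rows) in 10 populations of the control (C) and Yap1 cKO (K) libraries (columns), as log2(CPM + 1) by colour. The brightest collagen cells are Col4a1 and Col4a2 in the visceral and anterior visceral endoderm, and Itgb1 is bright in every column.

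Over all 20 pairs of population and library, the genes whose log2(CPM + 1) followed *Col4a1* most closely among 14222 genes were *Col4a2* with a Pearson r of 0.97, *Npc2* and *Plekha6* with 0.96 and 0.95, and *Cobll1* and *Ctsc* with 0.95 and 0.95. The points share 2 libraries and few lineages, so r is a description. *Lamb1* came at rank 124 with 0.85, *Lamc1* at rank 1866 with 0.57 and *Itgb1* at rank 2989 with 0.43.

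The gene pair is also close in the genome. *Col4a1* lies on the minus strand of chromosome 8 (chr8:11198423-11312826, GRCm38) and *Col4a2* on the plus strand (chr8:11312805-11449287), head to head, so that their first exons overlap by 22 bases. The overlap is shown because both transcripts begin in it, at opposite ends, and the sequence is from RefSeq on GRCm38.p6, plus strand, chr8:11312805-11312826.
Col4a1 and Col4a2 shared start: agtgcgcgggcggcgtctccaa

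A second pair of type IV collagen genes was high in a different tissue. *Col4a5* and *Col4a6* encode chains of another type IV collagen trimer and lie head to head on the X chromosome, with RefSeq starts 1343 bases apart. *Col4a6* was at 32.1 CPM among control and 21.1 CPM among *Yap1* cKO *Foxf1* and *Hand1* mesoderm-like cells, and at 5.89 CPM or lower in each of the other 5 larger populations. That was 5.45 and 4.39 times the next population. *Col4a5* was highest in the same cells in both libraries, at 15.0 and 6.21 CPM, or 3.41 and 1.45 times the next. In the visceral endoderm-like cells, where *Col4a1* and *Col4a2* were highest, *Col4a5* was at 0.185 and 0.437 CPM and *Col4a6* at 0 and 0.312 CPM. Only 12 UMIs of *Col4a3* and 20 of *Col4a4*, the third head-to-head pair, were seen in all.

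The stretches upstream of these X-linked starts are shown because both genes were highest in 1 population, and capitals mark a CCAAT box, the letters CCAAT or their reverse complement ATTGG. They are RefSeq promoter sequences on GRCm38.p6, 5′ to 3′ on the strand of the gene, chrX:141475169-141475384 (plus, ending before the GENCODE start of the gene) and chrX:141474077-141474326 (minus).
Col4a5 upstream: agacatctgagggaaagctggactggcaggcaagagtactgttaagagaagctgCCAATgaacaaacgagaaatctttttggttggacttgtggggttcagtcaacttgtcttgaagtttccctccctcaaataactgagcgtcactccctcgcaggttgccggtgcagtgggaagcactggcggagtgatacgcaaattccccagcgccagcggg
Col4a6 upstream: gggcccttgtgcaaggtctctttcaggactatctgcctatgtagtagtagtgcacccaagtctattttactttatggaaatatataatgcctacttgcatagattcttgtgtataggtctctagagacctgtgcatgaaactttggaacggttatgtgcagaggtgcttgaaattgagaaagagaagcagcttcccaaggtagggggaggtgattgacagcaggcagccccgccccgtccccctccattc

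Neither stretch held GGAATG or CATTCC, the core letters bound by TEAD factors, the DNA-binding partners of YAP1. Of 43 of the 62 members with an entry in the promoter table, 5 held these letters in the 250 bases upstream of a start, namely *Col18a1*, *Col6a2*, *Itga10*, *Itgb1* and *Lamb3*, or 10.2% of their 49 promoters. Of all 32851 promoters in the table, 12.6% did. CCAAT or ATTGG occurred in 28.6% of the members' promoters, those of *Col4a1*, *Col4a2*, *Col4a5*, *Col18a1* and *Lamb1* among them, and in 33.8% of all. Such letters are not shown to be bound. Sequence farther from the starts was not searched, so their absence here does not speak to distant sites.

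The laminin chains did not follow a single pattern. *Lama1* encodes the alpha chain of the early embryonic laminin. It was at 26.1 CPM among control and 21.9 CPM among *Yap1* cKO visceral endoderm-like cells, at 17.7 and 10.7 CPM in nascent mesoderm-like cells, at 8.85 and 9.45 CPM in *Foxf1* and *Hand1* mesoderm-like cells, and at no more than 1.30 CPM in epiblast, streak and extraembryonic ectoderm-like cells. *Lama5*, the alpha chain of the laminins that later predominate, had nearly the reverse order in the embryo proper, with 20.8 and 20.1 CPM in epiblast-like cells and 5.42 and 8.32 CPM in nascent mesoderm-like cells. Its level in visceral endoderm-like cells was 26.5 and 28.2 CPM.

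The partner chains were less restricted. *Lamb1* was at 56.4 and 60.4 CPM in visceral endoderm-like, 52.6 and 44.3 CPM in streak-like, 21.6 and 23.6 CPM in epiblast-like and 12.8 and 10.8 CPM in extraembryonic ectoderm-like cells. *Lamc1* was at 42.7 and 41.1 CPM in visceral endoderm-like, 28.5 and 22.6 CPM in epiblast-like and 29.4 and 23.5 CPM in extraembryonic ectoderm-like cells, and lowest in nascent mesoderm-like cells at 11.7 and 12.2 CPM. In the anterior visceral endoderm-like cells 3 chains stood above their visceral endoderm level in both libraries: *Lama5* at 71.9 and 57.1 CPM, *Lamb1* at 101 and 114 CPM, and *Lamc1* at 95.5 and 105 CPM. *Lama1* did not, at 10.8 and 12.5 CPM.

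*Lama4*, an alpha chain known from vessels and mesenchyme, was at 24.8 and 22.2 CPM in the *Foxf1* and *Hand1* mesoderm-like cells and at 20.7 and 24.1 CPM in the blood and endothelial progenitor-like cells. It was at no more than 1.99 CPM in the other 5 larger populations. That was 12.5 and 15.5 times the next of the 6 populations, and a *Lama4* UMI was found in 50.8% of 61 control and 54.0% of 50 *Yap1* cKO *Foxf1* and *Hand1* mesoderm-like cells, against 0% of 70 and 1.01% of 198 visceral endoderm-like cells.

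**Figure D2:**
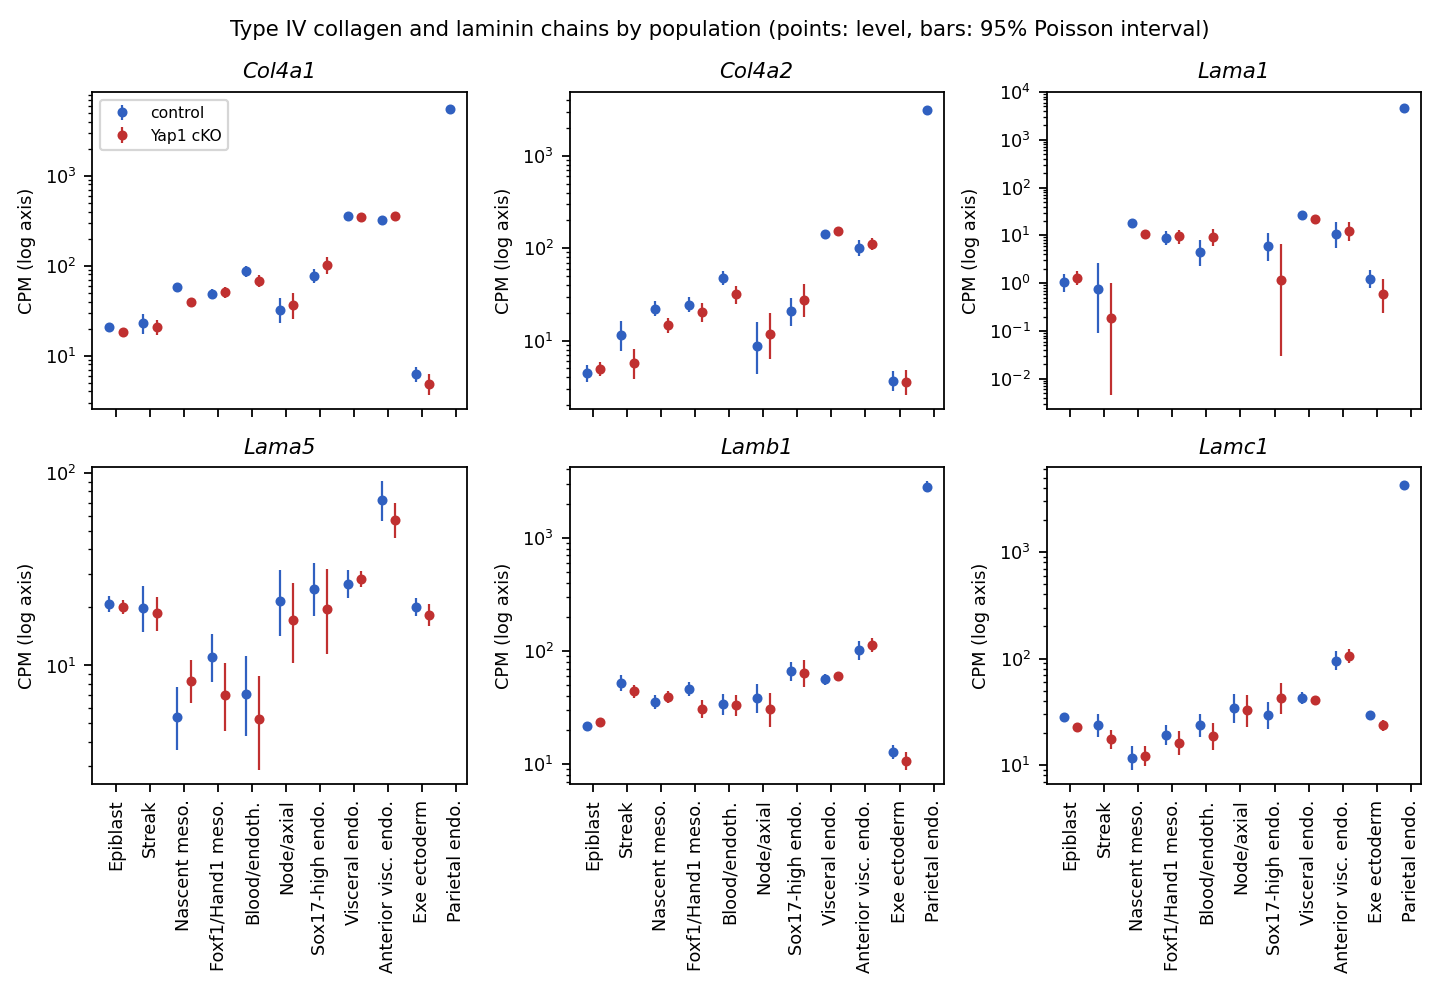
CPM on a log axis of Col4a1, Col4a2, Lama1, Lama5, Lamb1 and Lamc1 in 10 populations and in the 3 parietal endoderm-like control cells, with control in blue, Yap1 cKO in red and 95% Poisson intervals as bars; levels of 0 are not drawn. Col4a1 and Col4a2 are high in the visceral and anterior visceral endoderm, while the parietal endoderm-like cells lie at 2822 CPM or more for each gene except Lama5, which is at 0 there.

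A very small group of cells held a large part of the laminin UMIs. In the control library 3 cells, 100% of them Y-bearing, passed the gate for parietal endoderm. *Pth1r*, a hormone receptor of this tissue, was at 1213 CPM in them and at 82.4 CPM in control visceral endoderm-like cells. It is among the genes of the gate, so its high level there follows in part from the gate. The *Yap1* cKO library had 0 cells past this gate. In these 3 cells *Lama1* was at 4624 CPM (4237 to 5037), *Col4a1* at 5495 CPM, *Lamc1* at 4220 CPM, *Col4a2* at 3095 CPM and *Lamb1* at 2822 CPM, while *Lama5* was at 0. The cells held 0.176% of the UMIs of the control cells but 526 of 887 *Lama1* UMIs, or 59.3%. They held 20.7% of the *Lamc1*, 19.0% of the *Col4a2*, 14.3% of the *Lamb1* and 13.9% of the *Col4a1* UMIs, and 24.0% of those of *Nid1*, which encodes nidogen, the linker between laminin and type IV collagen.

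The 3 cells decided the direction of the *Lama1* difference between whole libraries. Over all cells *Lama1* was at 13.7 CPM among control and 7.20 CPM among *Yap1* cKO cells, and without the 3 cells the control level was 5.60 CPM, below that of the *Yap1* cKO library. *Lamc1* fell from 36.0 to 28.6 CPM in the control without them, against 26.8 CPM in the *Yap1* cKO library. The whole-library difference of *Col4a1*, 69.6 against 97.6 CPM, ran beside the numbers of visceral endoderm-like cells, 70 and 198, with levels of 354.0 and 346.1 CPM within those cells. A whole-library value is summed over whichever cells the pool holds. Beyond leaving out the 3 cells, the part of cell numbers in these differences was not tested. The comparisons of genotype below are made within populations.

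**Figure D3:**
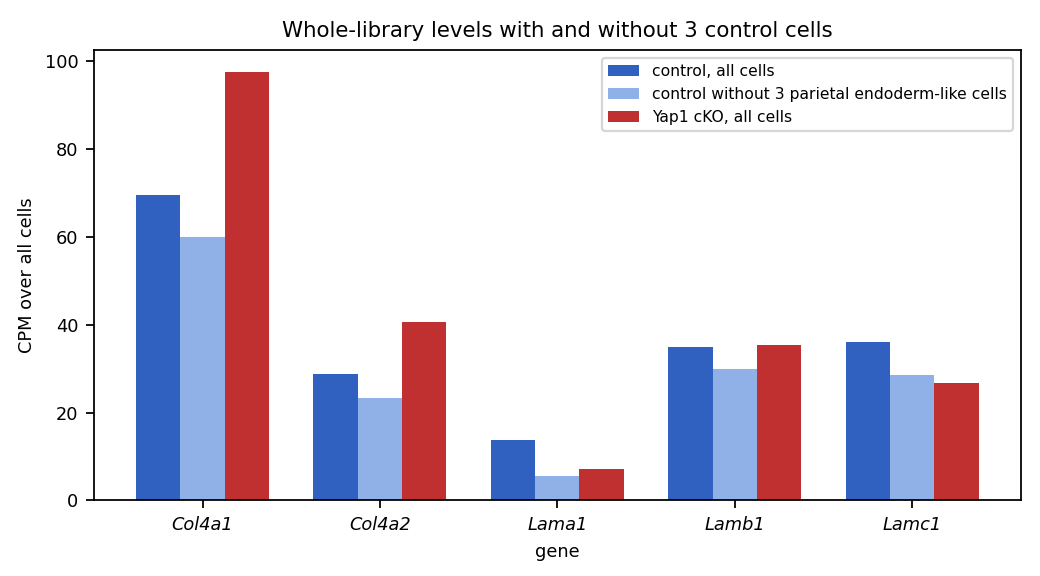
CPM over all cells of Col4a1, Col4a2, Lama1, Lamb1 and Lamc1 as bars from 0, for the control library, for the control library without its 3 parietal endoderm-like cells, and for the Yap1 cKO library. The control bar of Lama1 drops from 13.7 to 5.60 CPM without the 3 cells and then lies under the Yap1 cKO bar at 7.20 CPM.

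Other collagens were highest in other populations. *Col18a1*, a basement membrane collagen that carries heparan sulphate chains, was highest of the 6 in epiblast-like cells at 75.2 and 62.9 CPM. That was only 1.30 and 1.11 times the next of the 6 populations, and nascent mesoderm-like cells were lower at 12.3 and 18.7 CPM. *Col19a1*, a minor collagen of basement membrane zones, was at 29.6 and 17.8 CPM in nascent mesoderm-like cells, 4.24 and 3.47 times the next of the 6 populations, and at 0.084 CPM or lower in epiblast, visceral endoderm and extraembryonic ectoderm-like cells. The transmembrane collagens *Col13a1* and *Col23a1* were also highest in nascent mesoderm-like cells among the 6, *Col13a1* at 31.4 and 28.2 CPM and *Col23a1* at 57.3 and 52.1 CPM. Smaller populations reached or passed these levels. *Col13a1* was at 31.6 and 55.3 CPM in blood and endothelial progenitor-like cells. The median cell had 48.9 and 76.4 CPM of *Col23a1* among anterior visceral endoderm-like cells, against 30.0 and 20.9 CPM among nascent mesoderm-like cells. *Col9a1* was highest in *Foxf1* and *Hand1* mesoderm-like cells at 19.0 and 18.1 CPM. *Col2a1*, the fibrillar collagen of cartilage, was at 25.6 and 41.4 CPM in anterior visceral endoderm-like cells and at 4.09 CPM or lower in each of the 6 larger populations. The chains of type I collagen, *Col1a1* and *Col1a2*, held 99 and 236 UMIs in all.

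Among the receptors, *Itgb1*, the beta chain shared by the laminin, collagen and fibronectin receptors, was detected in each of the 6 larger populations, from 114 and 98.7 CPM in epiblast-like cells to 258 and 203 CPM in *Foxf1* and *Hand1* mesoderm-like cells. *Itga6*, an alpha chain of laminin receptors, was highest in epiblast-like cells at 51.6 and 41.3 CPM and lowest of the 6 populations in visceral endoderm-like cells at 6.66 and 5.61 CPM. *Itga5*, the alpha chain of the fibronectin receptor, had 5.51 and 3.90 CPM in epiblast-like cells, 20.6 and 20.9 CPM in nascent mesoderm-like cells and 23.3 and 24.3 CPM in visceral endoderm-like cells, so its low and high populations were nearly those of *Itga6* exchanged. *Itgav*, which pairs with several beta chains, varied least of these alpha chains, from 9.33 to 26.8 CPM.

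*Itgb5*, a partner of the alpha chain encoded by *Itgav*, was low in the visceral endoderm. It was at 2.04 and 2.81 CPM in visceral endoderm-like cells and between 27.2 and 45.9 CPM in each of the other 5 larger populations. A UMI of *Itgb5* was found in 15.7% of 70 control and 18.2% of 198 *Yap1* cKO visceral endoderm-like cells, and in 87.8% and 85.1% of epiblast-like cells. The laminin receptor chains *Itga7* and *Itgb4* were highest in extraembryonic ectoderm-like cells, at 14.6 and 13.3 CPM for *Itga7* and 7.31 and 5.55 CPM for *Itgb4*. *Itga7* was at 0.27 CPM or lower in each of the other 5 populations. *Itgb4* was less restricted, with 123 and 66 of its 257 UMIs in the extraembryonic ectoderm-like cells and a level 8.26 and 3.71 times that of the next population. *Itga3*, another laminin receptor chain, was shared by the epiblast at 5.97 and 4.83 CPM and the extraembryonic ectoderm at 7.19 and 8.07 CPM.

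Of the 48 members with at least 100 UMIs over the 10 populations, 36 were highest in the same one of the 6 larger populations in both libraries. In 7 that population was at least 3 times above each of the other 5 in both libraries, namely *Col4a1*, *Col4a2*, *Col4a6*, *Col19a1*, *Lama4*, *Itga7* and *Itgb4*. The same counts were not made over all genes, so they do not set the members apart.

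The genotypes were compared within each of the 6 larger populations, where the question is whether loss of YAP1 in the epiblast lineage goes with a change in matrix or receptor genes. A member was counted as higher or lower where it held at least 100 UMIs in the population and its ratio was at least 1.5 or at most its inverse. In epiblast-like cells 0 of 21 members were higher, where 1.4% of 11538 genes were, and 0 were lower, where 2.06% were. In primitive streak-like cells it was 0 of 9 in each direction, beside 1.26% of all genes higher and 3.11% lower. In extraembryonic ectoderm-like cells it was 0 of 14, beside 0.719% higher and 1.38% lower. With so few members, a share near the background gives 0 or 1, so these counts do not set the members apart.

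Members past 1.5-fold were found in 3 populations. In nascent mesoderm-like cells 1 of 16 was higher, beside 1.74% of 8567 genes, and 3 were lower, beside 1.94%. In *Foxf1* and *Hand1* mesoderm-like cells 1 of 16 was higher, beside 2.25% of 7525 genes, and 2 were lower, beside 2.66%. In visceral endoderm-like cells 1 of 13 was higher, beside 2.08% of 9385 genes, and 0 were lower, beside 1.85%. Here too a share near the background gives 0 or 1, so those counts do not set the members apart. The counts of 3 and 2 lower members were not tested against the background.

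In the nascent mesoderm the lower genes were chains of the basement membrane and *Col19a1*. *Lama1* was at 17.7 CPM on 98 UMIs (control) and 10.7 CPM on 82 UMIs (*Yap1* cKO), a ratio of 0.602 (0.443 to 0.815). *Col4a2* was at 22.2 and 14.8 CPM, with a ratio of 0.667 (0.512 to 0.867), which lay almost on the limit. Its partner *Col4a1* had a ratio of 0.685 (0.584 to 0.804), just short of the limit. *Col19a1* was at 29.6 and 17.8 CPM, with a ratio of 0.601 (0.475 to 0.758). *Col18a1* went the other way, at 12.3 and 18.7 CPM, with a ratio of 1.52 (1.13 to 2.06). None of the intervals included 1, but the genes past the limit were picked by the size of their ratios, so this adds no support. The libraries also differed in sex-linked UMIs here: 51.4% of 72 control and 10.3% of 87 *Yap1* cKO nascent mesoderm-like cells were Y-bearing. Among Y-bearing cells alone the ratio was 0.219 for *Lama1*, 1.07 for *Col4a2*, 0.999 for *Col4a1*, 1.14 for *Col19a1* and 1.51 for *Col18a1*, on 32, 69, 197, 93 and 54 UMIs. The calls also moved with the gates, the gene minimum, the scaling and the weighting of cells. The number of lower members was 2 with a minimum of 2000 genes, and also 2 with scaling by the median ratio over genes. *Col18a1* was under the limit with gate thresholds doubled (1.29) or halved (1.32) and with cells weighted equally (1.41). *Lama1* was short of it at 0.757 and *Col4a2* at 0.739 with cells weighted equally, and *Col19a1* at 0.689 with thresholds doubled. Among Xist-bearing cells alone *Lama1*, *Col4a2* and *Col19a1* were at ratios of 0.479, 0.557 and 0.482.

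In the *Foxf1* and *Hand1* mesoderm *Col18a1* was lower, at 19.9 CPM (control) and 10.5 CPM (*Yap1* cKO), a ratio of 0.529 (0.354 to 0.779). *Col4a6* was at 32.1 and 21.1 CPM, with a ratio of 0.657 (0.492 to 0.871). *Col23a1* was higher, at 13.5 CPM on 61 UMIs and 35.1 CPM on 130 UMIs, a ratio of 2.60 (1.91 to 3.59). With the gate thresholds halved, the ratio of *Col23a1* was 1.41, under the limit. Its UMIs were found in 44.3% of 61 control and 62.0% of 50 *Yap1* cKO cells of this population. *Col23a1* was at 57.3 and 52.1 CPM in the nascent mesoderm-like cells, and the part of cells lying between the populations in this ratio was not tested. Among Y-bearing and Xist-bearing cells alone its ratio was 4.18 and 1.65. *Lamb1* fell just short of the limit, with a ratio of 0.669 (0.528 to 0.843). *Col18a1* was below 1 among Y-bearing and Xist-bearing cells alone, at 0.456 and 0.514. *Col4a6* was short of the limit among Y-bearing cells, at 0.753 on 103 UMIs, and at 0.630 among Xist-bearing cells. In this population 63.9% of control and 26% of *Yap1* cKO cells were Y-bearing.

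In the visceral endoderm *Col27a1*, a fibrillar collagen, was at 9.07 CPM on 49 UMIs (control) and 18.9 CPM on 303 UMIs (*Yap1* cKO), a ratio of 2.08 (1.54 to 2.88). A *Col27a1* UMI was found in 41.4% of 70 control and 52.0% of 198 *Yap1* cKO cells. The ratio was 2.14 among Xist-bearing cells and 0.505 among Y-bearing cells, the second on 18 UMIs. *Yap1* was retained in these cells of both libraries, as given above, and the part of *Yap1* in the *Col27a1* ratio was not tested. The basement membrane chains were close between genotypes there, with ratios of 0.978 (0.928 to 1.03) for *Col4a1*, 1.07 (0.987 to 1.16) for *Col4a2*, 1.07 (0.939 to 1.22) for *Lamb1*, 0.961 (0.826 to 1.12) for *Lamc1* and 0.839 (0.688 to 1.03) for *Lama1*.

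**Figure D4:**
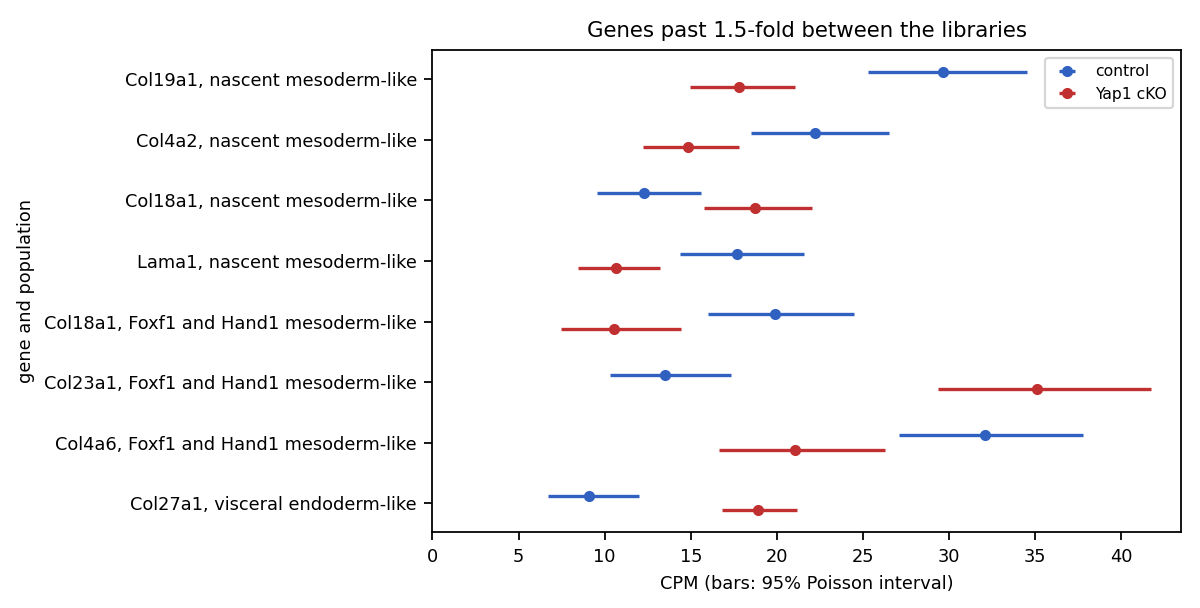
CPM with 95% Poisson intervals in the control (blue) and Yap1 cKO (red) libraries for the 8 pairs of gene and population past 1.5-fold with at least 100 UMIs. Col23a1 in the Foxf1 and Hand1 mesoderm-like cells has the widest gap, from 13.5 to 35.1 CPM.

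Below 1.5-fold, *Itgb1* was lower in the *Yap1* cKO library in each of the 6 larger populations. Its ratios were 0.867 (0.821 to 0.916) in epiblast-like, 0.889 (0.786 to 1.01) in streak-like, 0.876 (0.806 to 0.951) in nascent mesoderm-like, 0.786 (0.716 to 0.862) in *Foxf1* and *Hand1* mesoderm-like, 0.895 (0.837 to 0.957) in visceral endoderm-like and 0.861 (0.814 to 0.909) in extraembryonic ectoderm-like cells. The visceral endoderm-like cells, where *Yap1* was retained as given above, were among them, and the part of *Yap1* loss in these ratios was not tested. Among Y-bearing nascent mesoderm-like cells alone the ratio of *Itgb1* was 1.12. The median log2 ratio of all genes was also negative in each of the 6 populations. Between 10.6% and 20.2% of all genes with at least 20 UMIs had an interval below 1. Genes lower in all 6 were not counted, so this does not set *Itgb1* apart.

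In epiblast-like cells 12 of 47 members with at least 20 UMIs (25.5%) had an interval below 1 and 1 (2.13%) an interval above 1, beside 20.2% and 11.7% of all genes. *Itga6* was at a ratio of 0.800 (0.736 to 0.870), *Lamc1* at 0.791 (0.707 to 0.886) and *Itga5* at 0.708 (0.540 to 0.927). *Itga6* was at 0.636 among Y-bearing and 0.958 among Xist-bearing cells, whereas *Lamc1* was at 0.756 and 0.803. *Itga5* split the other way, at 0.910 and 0.573, on 83 and 134 UMIs. *Lamb1* at 1.09 (0.967 to 1.23) and *Col4a2* at 1.11 (0.847 to 1.45) had intervals that included 1. In the other 5 populations the interval of *Itga6* included 1.

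**Figure D5:**
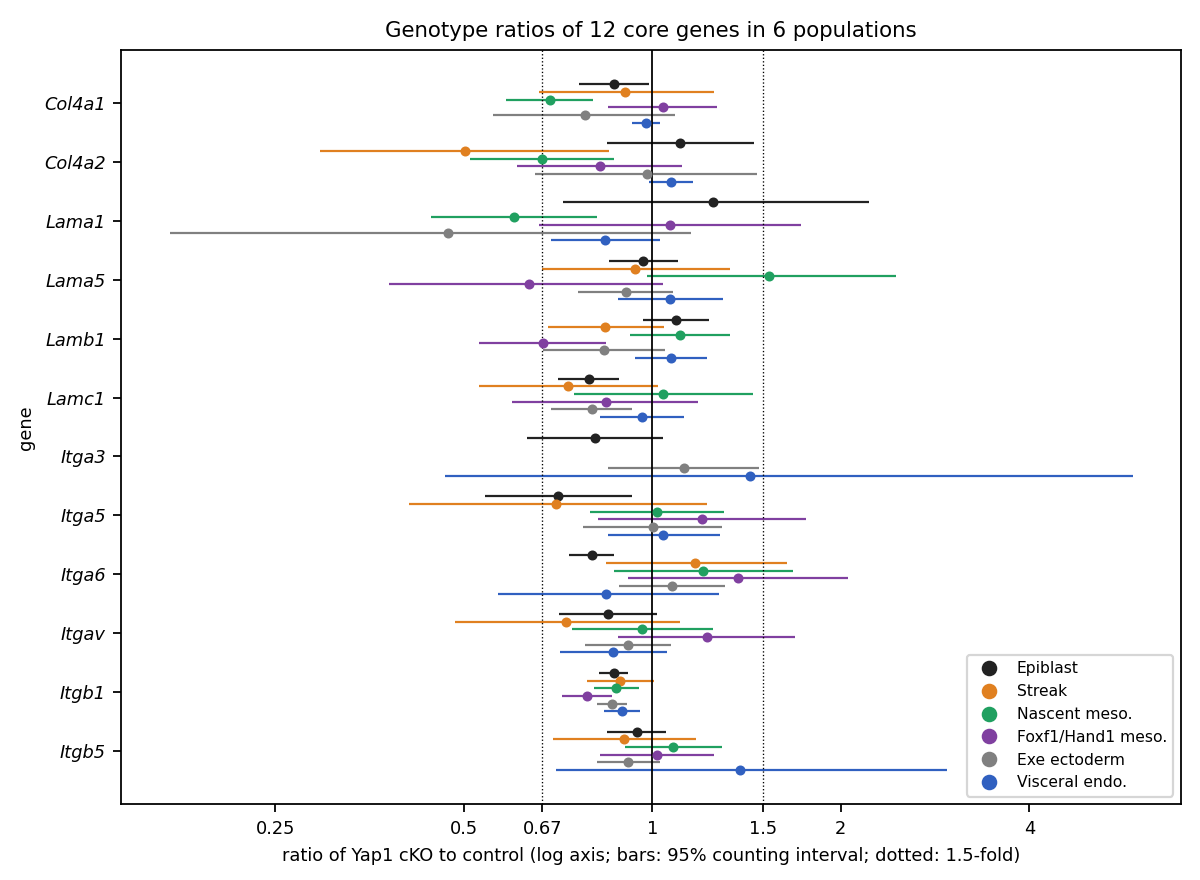
Ratio of the Yap1 cKO to the control level on a log axis for 12 core matrix and receptor genes in the 6 larger populations, with 95% counting intervals; pairs under 20 UMIs are not drawn and dotted lines mark 1.5-fold. The 6 points of Itgb1 lie between 0.786 and 0.895, and those of the other genes fall on both sides of 1.

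The median log2 ratio of the members with at least 20 UMIs was -0.083 in epiblast-like cells (47 members), beside -0.052 for all genes. It was -0.37 and -0.057 in streak-like cells (26 members), -0.075 and -0.015 in nascent mesoderm-like cells (34), -0.20 and -0.0044 in *Foxf1* and *Hand1* mesoderm-like cells (33), 0.015 and -0.019 in visceral endoderm-like cells (26), and -0.13 and -0.056 in extraembryonic ectoderm-like cells (25). The members' median lay below that of all genes in 5 of the 6 populations. In nascent mesoderm-like cells the members' median was 0.021 with a minimum of 2000 genes and 0.013 with cells weighted equally. In streak-like cells it was -0.15 when only members with at least 100 UMIs were taken, and in the *Foxf1* and *Hand1* mesoderm-like cells -0.023, and in epiblast-like cells -0.20. The median of all genes was not taken at that minimum.

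The other genes of matrix and adhesion, a list of 46 linkers, ligands, collagen-modifying enzymes, integrin adaptors and remodelling enzymes, had 0 members higher by 1.5-fold in each of the 6 populations, where 0.719% to 2.25% of all genes were higher. With 24 to 38 of the 46 genes at 100 UMIs or more in a population, a share near the background gives 0 or 1. The absence of higher genes thus does not set the list apart. Between 1 and 4 were lower, in a list chosen with earlier results of these data known. In epiblast-like cells 3 of 38 were lower, beside 2.06% of all genes: *Sparc*, a collagen-binding matrix protein, at a ratio of 0.647 (0.596 to 0.701), *Loxl2*, a collagen crosslinking enzyme, at 0.553 (0.435 to 0.700), and *Fermt1*, an integrin activator, at 0.572 (0.449 to 0.728). In streak-like cells 3 of 24 were lower, beside 3.11%: *Sparc* at 0.636, *Hspg2*, the basement membrane proteoglycan perlecan, at 0.613, and *Fn1*, fibronectin, at 0.653 (0.550 to 0.776).

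In nascent mesoderm-like cells 4 of 26 of that list were lower, beside 1.94% of all genes, with *Hspg2* at 0.566 (0.424 to 0.755), *Dag1*, the laminin receptor dystroglycan, at 0.602, *Sparc* at 0.634 and *Plod3*, a collagen lysine hydroxylase, at 0.658. In *Foxf1* and *Hand1* mesoderm-like cells 4 of 29 were lower, beside 2.66%, with *Loxl2* at 0.515, *P4ha2*, a collagen proline hydroxylase, at 0.563, *Timp2*, a metalloproteinase inhibitor, at 0.593 and *Agrn*, a heparan sulphate proteoglycan, at 0.611. In visceral endoderm-like cells *Hspg2* was at 0.539 and *Vcl*, the adaptor vinculin, at 0.648, 2 of 32 beside 1.85%. In extraembryonic ectoderm-like cells 1 of 30 was lower, beside 1.38%, namely *Loxl2* at 0.666 (0.423 to 1.03). *Sparc* was thus lower in the epiblast, streak and nascent mesoderm, and *Hspg2* in the streak, nascent mesoderm and visceral endoderm. For the genes of this list the ratios were not split by the sex of the cells or taken under other gates or weights.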

How the data were processed

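Whole E7 embryos of a genotype were pooled, dissociated and loaded as a single droplet library. The authors counted UMIs per gene and barcode with Cell Ranger 7.1.0 on mm10, and these raw counts are what they deposited. Barcodes were kept with 5000 or more detected genes and a mitochondrial share of 10% or less. Scrublet, run per library in scanpy 1.11.5, called 4 control and 19 *Yap1* cKO doublets, which were left out.

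Populations were set by summed CPM of marker genes, with thresholds chosen after the sums were seen, and cells of mixed identity were left out. Counts were summed per population and library. CPM intervals are exact Poisson and ratio intervals exact conditional binomial, in Python 3.11.15 with scipy 1.17.1. With 1 library per genotype, edgeR, DESeq2 and other tests across replicates were not applied. The ratios, intervals and 1.5-fold call were tested on Poisson counts simulated from the epiblast-like sums. The gates, the doublet calls, the smaller populations and any spread between cells beyond counting error were not part of that test.

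The named genes are 12 core chains, the members past 1.5-fold, those at least 3 times above every other large population, and those next to the UMI minimum. The members and lists were chosen with earlier results of these data known. Coordinates are GENCODE M21 and sequences RefSeq, both GRCm38. *Lama1* and *Lamc1* had no promoter entry. Alternatives varied the gene minimum, gates, doublets, scaling, cell weights, UMI and fold limits, and the sex of the cells.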

Additional observations from a re-analysis of the deposited data

Results flagged for a closer look

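The 3 parietal endoderm-like control cells lie outside the populations compared, and they held 59.3% of the *Lama1*, 13.9% of the *Col4a1* and 20.7% of the *Lamc1* UMIs of the control cells, with 0 such cells in the *Yap1* cKO library. *Col18a1* stood on opposite sides of 1 in 2 mesoderm populations, with a ratio of 1.52 in nascent mesoderm-like cells and 0.529 in *Foxf1* and *Hand1* mesoderm-like cells. With 1 library per genotype, the difference between these ratios was not tested.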

How the results depend on the processing

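No paired analysis was possible because each genotype has 1 library, and no replicate could be left out. Every interval covers counting error, and genes with few UMIs per population limit what can be seen. The number of members highest in the same population of both libraries was 36. It was also 36 with a minimum of 2000 genes and with cells weighted equally, and it was 29 with gate thresholds doubled.

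The counts of members past 1.5-fold moved most with the UMI minimum. Counts are listed here and in the next paragraph only where they changed by more than 1.5-fold, or to or from 0. Under the alternatives only members were counted, without the share of all genes, so these counts are not set against a background. At a minimum of 20 UMIs they were 1 higher and 7 lower in epiblast-like, 1 and 8 in streak-like, 6 and 6 in nascent mesoderm-like, 4 and 10 in *Foxf1* and *Hand1* mesoderm-like, 4 and 3 in visceral endoderm-like and 3 and 4 in extraembryonic ectoderm-like cells. At 200 UMIs, 0 were higher and 1 was lower in *Foxf1* and *Hand1* mesoderm-like cells. At a fold of 2, 0 members were higher or lower in nascent mesoderm-like cells and 0 were lower in *Foxf1* and *Hand1* mesoderm-like cells. Among Y-bearing cells alone, 1 was lower in epiblast-like, 0 higher and 1 lower in nascent and in *Foxf1* and *Hand1* mesoderm-like, 2 higher in visceral endoderm-like and 4 lower in extraembryonic ectoderm-like cells. Among Xist-bearing cells alone, 4 were lower in epiblast-like, 2 higher in nascent mesoderm-like, 1 lower in *Foxf1* and *Hand1* mesoderm-like, 1 lower in visceral endoderm-like and 1 higher in extraembryonic ectoderm-like cells.

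With a minimum of 2000 genes, 1 member was lower in epiblast-like cells, and with 6000, 1 in *Foxf1* and *Hand1* mesoderm-like cells. With doublets and mixed cells kept, 1 was lower in epiblast-like, 2 were higher in nascent mesoderm-like and 1 was lower in *Foxf1* and *Hand1* mesoderm-like cells. With gate thresholds doubled, 1 was lower in epiblast-like and 1 in streak-like cells. With them halved, 0 were higher in nascent and in *Foxf1* and *Hand1* mesoderm-like cells. With cells weighted equally, 0 were higher and 1 was lower in nascent mesoderm-like cells. The cause of these shifts was not tested, apart from the smaller numbers of cells or UMIs that some of them leave.

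Medians of the members' log2 ratios are listed here only where they moved by at least 0.1. The median log2 ratio of the members was -0.21 in epiblast-like and -0.24 in streak-like cells with gates doubled, and -0.22 in streak-like and 0.16 in visceral endoderm-like cells with gates halved. At a minimum of 100 UMIs it was -0.20 in epiblast-like, -0.15 in streak-like and -0.023 in *Foxf1* and *Hand1* mesoderm-like cells. At 1 UMI it was -0.16 in streak-like, 0.025 in *Foxf1* and *Hand1* mesoderm-like and -0.012 in extraembryonic ectoderm-like cells. Among Y-bearing cells it was 0.15 in nascent mesoderm-like, -0.44 in *Foxf1* and *Hand1* mesoderm-like, 0.27 in visceral endoderm-like and -0.37 in extraembryonic ectoderm-like cells. Among Xist-bearing cells it was -0.22 in streak-like, 0.061 in nascent mesoderm-like, -0.0085 in *Foxf1* and *Hand1* mesoderm-like and -0.019 in extraembryonic ectoderm-like cells. With cells weighted equally it was -0.082 in *Foxf1* and *Hand1* mesoderm-like cells.

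Of 751 ratios of named genes under an alternative, 700 stayed within the interval given and 51 lay outside it. In all, 57 lay on the other side of 1, and 52 of these were of genes whose own interval included 1. The other 5 were among Y-bearing cells: past 1.5-fold at first, *Col19a1* at 1.14 and *Col4a2* at 1.07 in nascent mesoderm-like cells and *Col27a1* at 0.505 in visceral endoderm-like cells, and below 1.5-fold *Itgb1* at 1.12 in nascent mesoderm-like and *Col4a1* at 1.01 in epiblast-like cells. Among the 52, *Lamb1* in extraembryonic ectoderm-like cells moved from 0.839 to 1.53 among Xist-bearing cells, and it was at 0.283 among Y-bearing cells. Restricting the epiblast to cells with *Fgf8* under 50 CPM, an alternative chosen after seeing the data, left 0 members past 1.5-fold. Leaving the 3 parietal endoderm-like cells out of the control library, also chosen after seeing the data, moved the whole-library ratio of *Lama1* from 0.524 to 1.29.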

Other observations

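In the smaller populations some members passed 1.5-fold, but the share of all genes was not taken there, so these values are not set against a background. In blood and endothelial progenitor-like cells, 29 in each library, *Col13a1* was at 31.6 CPM (control) and 55.3 CPM (*Yap1* cKO), *Itga9* at 28.2 and 43.6 CPM, and *Col4a2* at 47.7 and 31.6 CPM. In the control library 1 cell held 20.2% of these *Col13a1* UMIs and 1 cell held 20.5% of these *Col4a2* UMIs. In node and axial mesendoderm-like cells *Itgb1* stood at 154 against 93.2 CPM, with a ratio of 0.607 (0.473 to 0.776) over 17 and 13 cells, and 64.7% of those control cells and 0% of those *Yap1* cKO cells were Y-bearing.

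The 2 trophoblast giant cell-like cells of the control library had *Itga7* at 82.9 CPM and *Itgb4* at 20.7 CPM, and the 1 leukocyte-like cell had *Itgb1* at 718 CPM and *Itga1* at 406 CPM. *Lamc3* was at 0.573 CPM (control) and 1.61 CPM (*Yap1* cKO) over all cells, on 37 and 127 UMIs. Such whole-library values depend on the cells each pool holds. In control epiblast-like cells 1 cell held 52.2% of 23 *Lamc3* UMIs.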
